A study of Arabidopsis thaliana with 9 samples.

Results

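The 5 genes described here flank JMJ24 (AT1G09060) on chromosome 1 of Arabidopsis thaliana: AT1G09010, SRC2 (AT1G09070), AT1G09130, AT1G09150 and AT1G09160. They were chosen because they lie beside JMJ24 in gene order and are each named by a probe set of the Affymetrix ATH1 array, a chip that measures transcripts by hybridization. They are 5 of the 13333 loci measured under a name here, and their 5 probe sets are among the 22746 that were tested. In the RefSeq annotation (TAIR10.1) the stretch that starts at AT1G09010 and ends at AT1G09160 holds 16 protein-coding genes. The other 11, JMJ24 included, have no probe set under their name here, so the level of JMJ24 itself is not reported. SRC2 is the coding gene next to JMJ24. AT1G09010 is the fifth coding gene on the other side, while AT1G09130, AT1G09150 and AT1G09160 are the fifth, the seventh and the tenth on the side of SRC2. Each of the 5 genes has 1 probe set, and none of these probe sets names a further gene.

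RNA came from whole seedlings of 3 genotypes, with 3 arrays for each. The jmj24 mutant was obtained from a European stock centre and is disrupted in AT1G09060; the labels do not give the position of the disruption within the gene. The 35S::JMJ24 line was made by transformation with Agrobacterium and transcribes JMJ24 from the 35S promoter of a plant virus, which is active in most plant cells; the site of its transgene in the genome is not given. Wild type (WT) was Col-0. The mutant and the overexpressor are each represented by 1 line under 1 label, and seedlings were 9 days old according to the extraction protocol, while the growth protocol gives 10-14 days.

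A gene disruption made by inserted DNA can alter the genes around it, for instance when transcription runs on past its normal end or when an enhancer carried by the insert acts on a nearby promoter. The 35S promoter is known in plants for such action on genes close to it. JMJ24 belongs to the jumonji proteins, many of which remove methyl groups from histones, and chromatin marks can spread along a chromosome. The comparisons below ask whether the transcripts of the neighbours differ in the line with a disrupted JMJ24 or in the line that overexpresses it.

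Among the 5, AT1G09010 encodes an endo-beta-mannosidase, an enzyme that cleaves mannose linkages in N-glycans. SRC2 encodes a membrane-associated protein with a C2 domain, a calcium and lipid binding module, and is named after a soybean gene that is induced by cold. AT1G09130 encodes CLPR3, a subunit without catalytic activity in the core of the plastid Clp protease, the main protein-degrading complex of the chloroplast stroma. AT1G09150 encodes a protein with a PUA domain, an RNA-binding fold that is also found in the animal translation factor MCTS1. AT1G09160 encodes a protein phosphatase of the PP2C family.

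Values are log2 levels as deposited, 1 per probe set and array. All 5 genes were well above the brightest of 27 bacterial control probe sets, whose mean of 5.80 served as a mark of background. The lowest value of any of the 5 was 7.93, for AT1G09160. Correlations between any 2 arrays lay between 0.992 and 0.998 over all probe sets. The arrays numbered 1 stood apart in each genotype: on the component that held 40.1% of the variation within genotypes they scored -15.2 (jmj24), -13.2 (35S::JMJ24) and -18.9 (WT), while the other 6 arrays scored between 1.41 and 17.5. Of 11 listed markers of green tissue 1 was measured under a name: RCA, which encodes Rubisco activase, averaged 13.48 in jmj24, 13.53 in 35S::JMJ24 and 13.54 in WT. Of 5 root markers 4 were measured, and 3 of the 4 had means above WT in both lines. The log2 differences in jmj24 and 35S::JMJ24 were 0.30 and 0.40 for EXPA7, 0.46 and 0.47 for EXPA18, 0.17 and 0.23 for AT5G66390, and -0.078 and -0.067 for PYK10, with list medians of 0.24 and 0.32. By limma 0 of these 4 passed in either line. An unadjusted p under 0.05 was found for 2 in jmj24 (against 11% of all loci) and 3 in 35S::JMJ24 (against 7.41%), all of them above WT. EXPA7 averaged 5.88 in WT, close to the mark of background, with a lowest WT value of 5.53. The part of the root markers in the results was not tested. AT3G28750, listed as a pollen gene, averaged 6.87 in jmj24, 6.85 in 35S::JMJ24 and 6.99 in WT, above the mark. None of 5 seed storage genes was measured under a name. In RNA from whole seedlings, fewer cells of a type and less RNA per cell cannot be told apart.

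None of the 5 genes passed the test between the jmj24 mutant and WT. SRC2, the immediate neighbour, had the highest estimate, 1.20-fold of WT, and the 3 mutant values overlapped the 3 WT values. The other 4 genes had mean levels slightly below WT, at 0.954-fold to 0.985-fold. By limma with Benjamini-Hochberg adjustment over all probe sets, 0 of 5 passed at an adjusted p under 0.05, with adjusted p from 0.652 to 0.925. At an unadjusted p under 0.05 the count was also 0 in this fit, which has no term for the array number, and in 0 of 5 did the groups not overlap. Over all 22746 probe sets the test called 259, or 1.14% (0.308% higher and 0.831% lower), 11.7% had an unadjusted p under 0.05, and in 16.0% the groups did not overlap. The median log2 difference was -0.037 for the 5 genes and 0.0061 for all probe sets.

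SRC2 read 11.82, 12.08 and 12.31 in the jmj24 arrays, 11.72, 11.94 and 12.31 in the 35S::JMJ24 arrays and 11.43, 11.87 and 12.11 in the WT arrays, numbered 1 to 3 in each case. The ranges of the 3 genotypes overlapped, and the lowest value of all 9 was that of WT 1. The log2 difference between jmj24 and WT was 0.27 (SE 0.20), with a 95% interval of -0.19 to 0.72, that is 0.877-fold to 1.65-fold (limma, adjusted p = 0.652). A two-sided exact permutation test gave p = 0.5, where 3 arrays against 3 allow no p below 0.1. Neither this test nor the limma fit takes the array number into account. Without WT 1 the log2 difference was 0.080, and without WT 3 it was 0.42 (adjusted p = 0.959 and 0.411); without jmj24 3 it was 0.15. Leaving out 1 array also leaves the array numbers unequal between the genotypes.

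SRC2 followed the array number. In each of the 3 genotypes the array numbered 1 was the lowest and the array numbered 3 the highest. The mean over the 3 genotypes was 11.66 ± 0.20 for the arrays numbered 1, 11.97 ± 0.11 for those numbered 2 and 12.24 ± 0.12 for those numbered 3 (SD, n = 3 each). The pattern held for 490 of all 22746 probe sets, and the opposite pattern for 448. The labels do not say what the number stands for. The SD of SRC2 within genotypes was 0.30, against a median of 0.12 over all probe sets, and 96.8% of probe sets had a smaller one. Leaving out the 3 arrays numbered 1 gave a log2 difference of 0.21 for jmj24 against WT (adjusted p = 0.699).

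**Figure D1:**
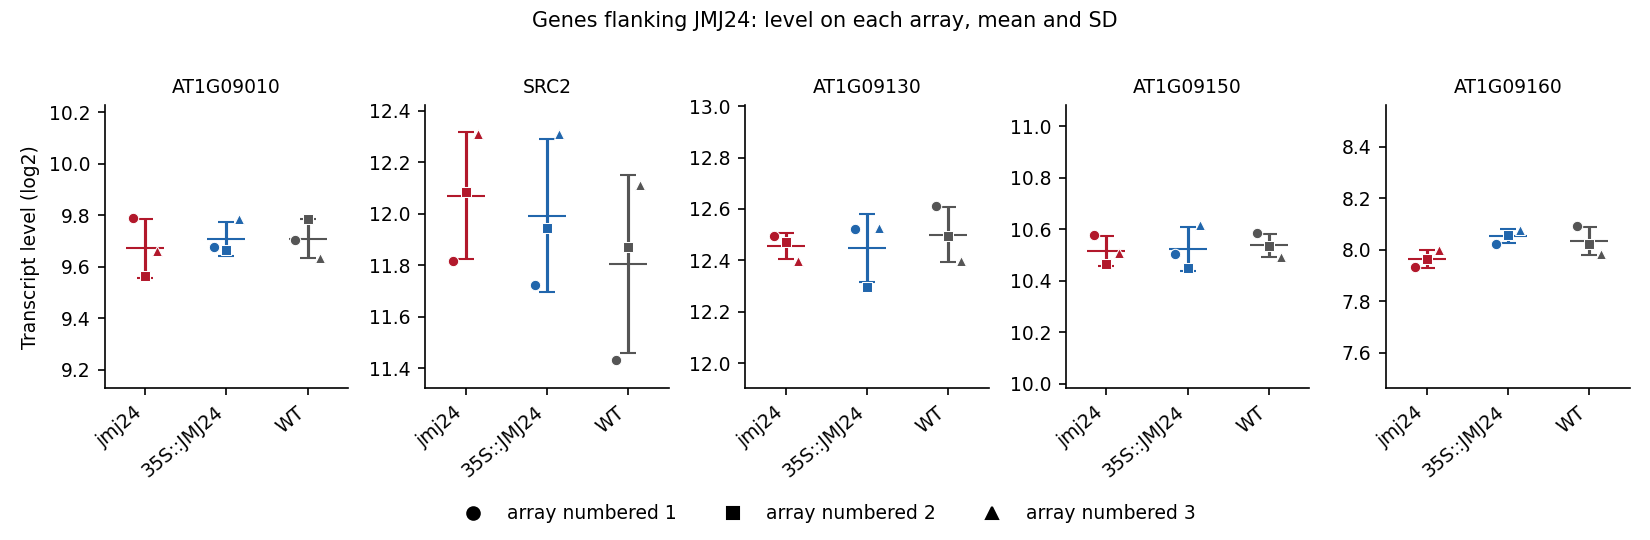
Log2 transcript level (vertical axis, each panel spanning the same 1.1 units) of the 5 flanking genes on the 9 arrays, by genotype, with symbols for the array number and the mean with its SD (n = 3). SRC2 spans 0.88 over the 9 arrays, with the array numbered 1 lowest in every genotype, while the other 4 genes span 0.16 to 0.31.

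The other 4 genes varied little. AT1G09010 read 9.79, 9.57 and 9.66 in jmj24, against 9.71, 9.79 and 9.63 in WT. Its highest and its lowest value of all 9 arrays were both in the mutant, and the log2 difference was -0.037 (SE 0.077, 95% interval -0.21 to 0.14, limma adjusted p = 0.885). AT1G09130, the Clp protease subunit, read 12.50, 12.47 and 12.40 in jmj24, against 12.61, 12.50 and 12.40 in WT, a log2 difference of -0.045 (SE 0.085, 95% interval -0.24 to 0.15). The mutant values lay within the range of WT. AT1G09150 read 10.58, 10.46 and 10.51 in jmj24, against 10.59, 10.53 and 10.49 in WT, a log2 difference of -0.022 (SE 0.067, 95% interval -0.17 to 0.13); the groups overlapped. AT1G09160, the phosphatase, read 7.93, 7.96 and 7.9998 in jmj24, against 8.09, 8.02 and 7.98 in WT. Its mutant values were low but 1 of them exceeded the lowest WT value, and the log2 difference was -0.068 (SE 0.058, 95% interval -0.20 to 0.062, limma adjusted p = 0.692). Over these 4 genes, the 95% intervals ran between 0.849-fold and 1.11-fold of WT.

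None of the 5 genes passed between 35S::JMJ24 and WT either. SRC2 again had the largest estimate, 1.14-fold of WT with overlapping groups, and the other 4 lay between 0.964-fold and 1.01-fold. By limma 0 of 5 passed, with adjusted p from 0.832 to 0.999, and 0 of 5 had an unadjusted p under 0.05. Over all 22746 probe sets this comparison called 4, or 0.0176% (0.00879% higher and 0.00879% lower), 7.43% had an unadjusted p under 0.05, and in 11.7% the groups did not overlap, against 0 of the 5. The median log2 difference was 0.00059 for the 5 genes and 0.020 for all probe sets. Both comparisons use the same WT arrays, so the estimates of the lines are not independent of each other.

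For SRC2 the log2 difference between 35S::JMJ24 and WT was 0.19 (SE 0.20, 95% interval -0.27 to 0.64, limma adjusted p = 0.832). Here too, leaving out 1 array leaves the array numbers unequal between the genotypes. The log2 difference was 0.0025 without WT 1, 0.029 without 35S::JMJ24 3 and 0.34 without WT 3. Without the 3 arrays numbered 1 it was 0.14 (adjusted p = 0.885). Of the 3 values of the line, 1 lay below the WT median and 1 above the highest WT value.

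AT1G09010 read 9.68, 9.67 and 9.78 in 35S::JMJ24, against 9.71, 9.79 and 9.63 in WT, a log2 difference of 0.00059 (SE 0.077, 95% interval -0.17 to 0.17). AT1G09130 read 12.52, 12.30 and 12.53 in 35S::JMJ24, against 12.61, 12.50 and 12.40 in WT, a log2 difference of -0.052 (SE 0.085, 95% interval -0.24 to 0.14). Its lowest value of all 9 arrays was that of 35S::JMJ24 2. AT1G09150 read 10.50, 10.45 and 10.62 in 35S::JMJ24, against 10.59, 10.53 and 10.49 in WT, a log2 difference of -0.015 (SE 0.067, 95% interval -0.17 to 0.14). AT1G09160 read 8.02, 8.06 and 8.08 in 35S::JMJ24, against 8.09, 8.02 and 7.98 in WT, a log2 difference of 0.019 (SE 0.058, 95% interval -0.11 to 0.15). In each of these genes the values of the line overlapped those of WT, and over the 4 the 95% intervals ran between 0.845-fold and 1.13-fold.

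**Figure D2:**
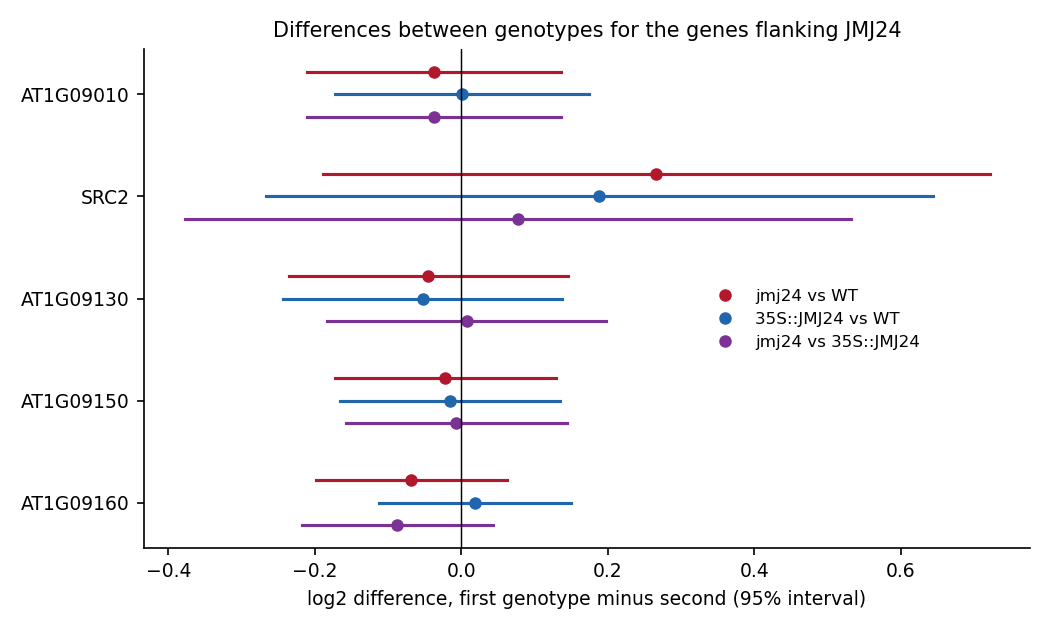
Log2 difference between genotypes (horizontal axis, first genotype minus second) of each flanking gene, with points for the limma estimate and lines for its 95% interval, for jmj24 against WT, 35S::JMJ24 against WT and jmj24 against 35S::JMJ24. All 15 intervals include 0, and those of SRC2 are the widest.

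The lines were also compared with each other. By limma 0 of 5 genes passed between jmj24 and 35S::JMJ24, with adjusted p from 0.899 to 0.997 and 0 of 5 at an unadjusted p under 0.05, where 56 of all probe sets passed, or 0.246% (0.0264% higher and 0.22% lower), and 6.33% had an unadjusted p under 0.05. AT1G09160 was the 1 gene whose groups did not overlap. Its 3 mutant values, at most 7.9998, lay below its 3 values in 35S::JMJ24, at least 8.02, as did the groups of 10.2% of all probe sets in either direction. The log2 difference was -0.087 (SE 0.058, 95% interval -0.22 to 0.043, limma adjusted p = 0.899), and the two-sided exact permutation test gave p = 0.1, the smallest that 3 against 3 can give. SRC2 differed by 0.077 (95% interval -0.38 to 0.53), AT1G09010 by -0.037, AT1G09130 by 0.0074 and AT1G09150 by -0.0065.

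Across the 3 genotypes the order of the mean levels differed among the genes. SRC2 averaged 12.07 ± 0.25 in jmj24, 11.99 ± 0.30 in 35S::JMJ24 and 11.80 ± 0.34 in WT (log2, SD, n = 3 each). AT1G09160 averaged 7.96 ± 0.034 in jmj24, 8.05 ± 0.027 in 35S::JMJ24 and 8.03 ± 0.055 in WT. For AT1G09010 the means were 9.67 ± 0.11 in jmj24, 9.71 ± 0.065 in 35S::JMJ24 and 9.71 ± 0.076 in WT. For AT1G09130 they were 12.46 ± 0.050 in jmj24, 12.45 ± 0.13 in 35S::JMJ24 and 12.50 ± 0.11 in WT. For AT1G09150 they were 10.52 ± 0.057 in jmj24, 10.52 ± 0.086 in 35S::JMJ24 and 10.54 ± 0.046 in WT. Neighbours in the order of means had overlapping ranges in all 5 genes; jmj24 and 35S::JMJ24, the lowest and the highest mean of AT1G09160, did not overlap. The moderated F test of limma over the 3 genotypes passed for 0 of the 5 (adjusted p from 0.769 to 0.983), while 161 of all probe sets passed it, or 0.708%.

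The estimates were recomputed with each array left out in turn. The difference of SRC2 from WT stayed above 0 in all 9 such fits, between 0.080 and 0.42 in jmj24 and between 0.0025 and 0.34 in 35S::JMJ24, and passed the test in none (lowest adjusted p = 0.411 and 0.614). Those of AT1G09160 in jmj24 stayed below 0, between -0.093 and -0.039. Each of the other differences from WT changed sign when at least 1 array was left out, the largest in size being -0.10, of AT1G09130 in 35S::JMJ24.

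**Figure D3:**
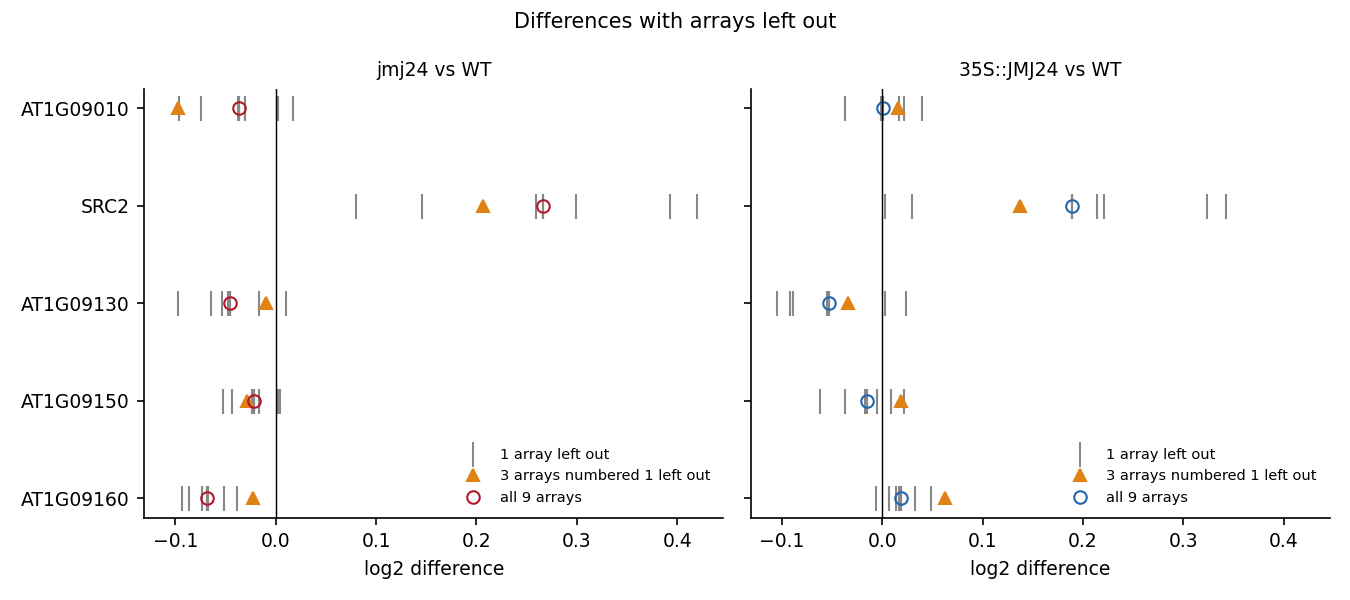
Log2 difference from WT (horizontal axis) of each flanking gene in jmj24 (left) and 35S::JMJ24 (right), with open circles for all 9 arrays, ticks for fits without 1 array and triangles for the fit without the 3 arrays numbered 1. SRC2 spreads between 0.080 and 0.42 in jmj24 and between 0.0025 and 0.34 in 35S::JMJ24, while the single-array fits of the other 4 genes run between -0.10 and 0.048.

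The genes were next set against the genes whose profile over the 9 arrays was most like theirs, among 5747 named loci above the mark of background with an SD of at least 0.1. For SRC2 these were AT5G10695 (Pearson r = 0.982) and AT2G27260 (r = 0.981). AT5G10695 read 11.77, 12.36 and 12.55 in jmj24, 11.60, 12.12 and 12.55 in 35S::JMJ24 and 10.89, 11.83 and 12.30 in WT. It shares with SRC2 the low value on each array numbered 1, and did not pass in jmj24 (0.55, adjusted p = 0.598) or in 35S::JMJ24 (0.42, adjusted p = 0.791). AT2G27260 was likewise lowest on the array numbered 1 and highest on the array numbered 3 within each genotype, with 8.09 on WT 1 as its lowest value, and did not pass in jmj24 (0.30, adjusted p = 0.604) or in 35S::JMJ24 (0.28, adjusted p = 0.755).

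For AT1G09010 the most similar profiles were those of AT5G63630 (r = 0.922), which encodes a DEAD-box RNA helicase, and AT5G49990 (r = 0.898), a nucleobase permease. For AT1G09130 they were scpl46 (r = 0.952), a serine carboxypeptidase-like gene, and POLA3 (r = 0.948), which encodes a subunit of the DNA polymerase alpha and primase complex. For AT1G09150 they were AT5G16130 (r = 0.924), a ribosomal protein gene, and AT1G34010 (r = 0.921). For AT1G09160 they were AT2G36200 (r = 0.946), a kinesin gene, and AT5G42720 (r = 0.899). None of these loci passed in either line against WT. Among the 5 flanking genes themselves the highest correlation was that of AT1G09010 with AT1G09150 (r = 0.773) and the lowest that of SRC2 with AT1G09130 (r = -0.501). These values describe 9 arrays that share their genotypes and array numbers.

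Beyond the 5 genes, the wider stretch of chromosome 1 was examined in gene order. Of the 50 loci that make up the nearest 25 measured on each side of JMJ24, 0 were higher and 1 was lower in jmj24, that is 2.0%, against 1.1% of all 13333 loci. At an unadjusted p under 0.05 there were 5 of the 50 in jmj24, 10.0%, against 11% of all loci. The 1 locus was AT1G08310, which encodes an alpha/beta hydrolase and stands at position -21 among measured loci, counted from JMJ24 with the side of AT1G09010 negative. In 35S::JMJ24 0 of the 50 passed by limma, against 0.0075% of all loci, and 6 had an unadjusted p under 0.05, 12% against 7.41% of all loci. The median log2 difference of the 50 was 0.0059 in jmj24 and 0.013 in 35S::JMJ24, against 0.013 and 0.025 for all loci. Of the 20 loci that make up the nearest 10 measured on each side, 0 passed in either line. With an unadjusted p under 0.05 there was 1 of the 20 in jmj24 (5.0%, against 11% of all loci) and 3 in 35S::JMJ24 (15%, against 7.41%). Counted over all protein-coding genes from JMJ24, these 20 ran from position -44 to 25 and the 50 from -83 to 45. Genes of these stretches without a probe set under their name were not examined.

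AT1G08310 read 7.60, 7.23 and 8.04 in jmj24, 8.52, 8.78 and 8.27 in 35S::JMJ24 and 8.76, 9.33 and 9.10 in WT. The mutant values lay below all others. It fell by 1.44 on the log2 scale in jmj24 (SE 0.22, 95% interval -1.93 to -0.95, limma adjusted p = 0.0146) and differed by -0.54 in 35S::JMJ24 without passing (adjusted p = 0.645). The call was lost without WT 2 (adjusted p = 0.0720), without WT 3 (adjusted p = 0.0539), without the 3 arrays numbered 1 (adjusted p = 0.128) and with only the 2 genotypes in the fit (adjusted p = 0.0540).

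AT1G09500, which encodes a relative of the alcohol dehydrogenases of lignin synthesis, is the 26th measured locus on the side of SRC2. It read 7.93, 8.40 and 8.36 in jmj24, 9.25, 9.17 and 9.02 in 35S::JMJ24 and 9.21, 9.15 and 9.26 in WT, with the mutant values apart from the others. It fell by 0.97 in jmj24 against WT (SE 0.12, limma adjusted p = 0.00565), and this call was kept without any 1 of the 9 arrays and without the 3 numbered 1. It also differed between jmj24 and 35S::JMJ24, by -0.92 (adjusted p = 0.0213), a call lost without 5 of the 9 arrays taken singly (adjusted p of up to 0.124), without the 3 arrays numbered 1 (adjusted p = 0.158) and with only the 2 genotypes in the fit (adjusted p = 0.0985). Between 35S::JMJ24 and WT the log2 difference was -0.056 (adjusted p = 0.921).

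Within 100 measured loci on each side, 2 loci were higher and 4 lower in jmj24, 3.0% of 200 against 1.1% of all loci. In 35S::JMJ24 0 of the 200 passed, against 0.0075% of all loci. At an unadjusted p under 0.05 there were 32 of the 200 in jmj24, 16.0% against 11% of all loci, and 15 in 35S::JMJ24, 7.5% against 7.41%. The others were farther out, all on the side of AT1G09010. AT1G07650, a leucine-rich repeat receptor-like kinase gene, differed by -0.43 (adjusted p = 0.0349) and AT1G07380, which encodes a ceramidase, by -0.43 (adjusted p = 0.0385). AT1G06830, a glutaredoxin gene, differed by 0.69 (adjusted p = 0.0444) and the transcription factor gene bZIP52 by 0.52 (adjusted p = 0.0471). Each of these 4 calls was lost without at least 6 of the 9 arrays, taken 1 at a time, with adjusted p of up to 0.176, and without the 3 arrays numbered 1. Each locus called lay beyond measured neighbours of JMJ24 that did not pass, but with 1.1% of all loci called in jmj24 most loci anywhere did not pass. Among measured loci the closest was AT1G08310, at position -21. When all protein-coding genes are counted, AT1G08310 is at position -75 and AT1G09500 is the closer, at position 49. Whether a change spreads along the stretch was not tested.

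**Figure D4:**
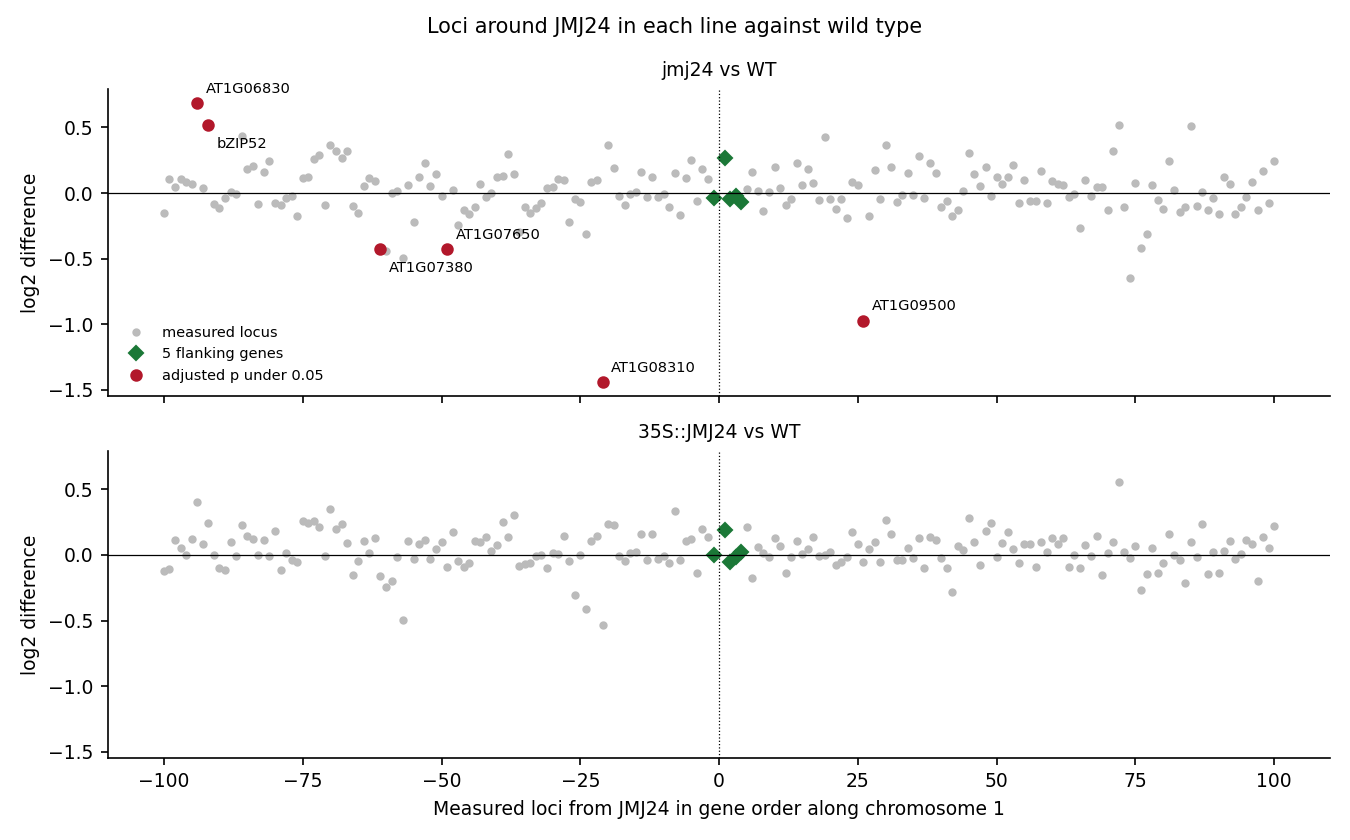
Log2 difference from WT (vertical axis) of the 100 measured loci on each side of JMJ24 (horizontal axis, position in gene order among measured loci, JMJ24 at 0) in jmj24 (top) and 35S::JMJ24 (bottom); diamonds are the 5 flanking genes and red points are loci with an adjusted p under 0.05. In jmj24 6 loci are called, the closest at position -21, and in 35S::JMJ24 there are 0.

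Genes that work with the 5 neighbours, or belong to their families, were examined as lists; 0 members of any list passed by limma in either line against WT. For AT1G09010 the list covered enzymes that trim or break down N-glycans, of which 6 of 14 were measured under a name. All 6 had a lower mean in jmj24 (median -0.11), as did 10903 of all 22746 probe sets, and 2 had an unadjusted p under 0.05, where 11% of all loci did. The 6 include AT5G66150, a putative alpha-mannosidase gene below the mark of background. Of the 6, 2 had a higher mean in 35S::JMJ24 (median -0.021), and 1 had an unadjusted p under 0.05, where 7.41% of all loci did. The smallest p in jmj24 belonged to ENGase85B (AT3G11040), an endoglycosidase that frees N-glycans from proteins, at -0.55 (SE 0.12, adjusted p = 0.0889). The smallest p in 35S::JMJ24 belonged to AT5G66150, at 0.19 (adjusted p = 0.658).

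For SRC2, 4 of 16 genes of the cold response were measured. Their median log2 difference was -0.062 in jmj24 and 0.039 in 35S::JMJ24. An unadjusted p under 0.05 was found for 1 of the 4 in jmj24 (against 11% of all loci) and 0 in 35S::JMJ24 (against 7.41%). The smallest p in both lines belonged to COR15B, which encodes a chloroplast protein that protects membranes during freezing, at 0.21 in jmj24 (adjusted p = 0.425) and 0.10 in 35S::JMJ24 (adjusted p = 0.803). The estimates of SRC2 in both lines were above those of all 4.

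For AT1G09130, 4 of 14 further Clp protease genes were measured, with a median of -0.062 in jmj24 and -0.028 in 35S::JMJ24 and 0 at an unadjusted p under 0.05 in either. The smallest p belonged in both lines to AT1G68660, which encodes the adaptor CLPS1, at -0.17 in jmj24 (adjusted p = 0.427) and -0.084 in 35S::JMJ24 (adjusted p = 0.791). For AT1G09150, 5 of 6 factors of translation start were measured, with medians of 0.0077 in jmj24 and 0.037 in 35S::JMJ24 and 0 at an unadjusted p under 0.05 in either. AT4G27130, an eIF1 gene, had the smallest p in both, at 0.12 in each (adjusted p = 0.596 and 0.732). For AT1G09160, 2 of 11 listed PP2C genes were measured, both with a mean above WT in both lines. AT1G68410 read 0.34 in jmj24 (unadjusted p = 0.0389, adjusted p = 0.390) and 0.30 in 35S::JMJ24 (adjusted p = 0.672). Over all loci the median was 0.013 in jmj24 and 0.025 in 35S::JMJ24, and 11% and 7.41% of them had an unadjusted p under 0.05.

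**Figure D5:**
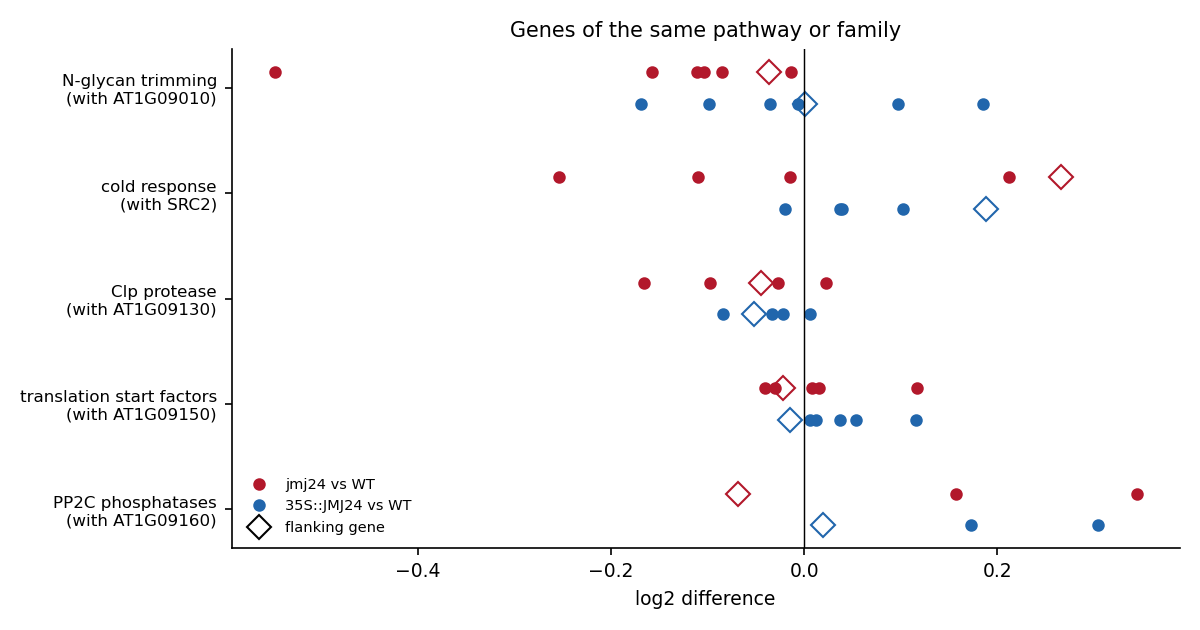
Log2 difference from WT (horizontal axis) in jmj24 and 35S::JMJ24 of the measured members of each list (filled points), with the flanking gene of the same pathway or family as an open diamond. All values except that of ENGase85B (-0.55 in jmj24) lie between -0.25 and 0.34, and 0 members passed the test.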

How the data were processed

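Transcript levels of 9 ATH1 arrays were used, 3 for each genotype, grouped by sample title. Per the submitters' processing notes, the authors used affy to make the deposited log2 values; how it was set (background, normalization, summary) and its version were not stated. No source names the scale, and log2 was read from the values (2.63 to 14.7, array medians 7.83 to 7.87). Of 22810 probe sets, 64 array controls were left out. Names came from the platform annotation and the RefSeq table, which was used for names and gene order only: 13513 tested probe sets name 1 gene, 503 several and 8730 none, and 13484 matched 13333 loci, each represented by its brightest probe set.

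With limma 3.58.1, a mean for each genotype was estimated over the 9 arrays together (R 4.3.3; 6 residual and 3.34 prior degrees of freedom), two-sided, with Benjamini-Hochberg adjustment over 22746 probe sets and a threshold of 0.05. It was tested on simulated data. Exact permutation tests stand beside single values. The mark of background used the 27 Bacillus control probe sets alone, and the other bacterial and phage controls, which are spiked in at hybridization, were not used. Whether Bacillus transcripts were also added to these samples was not checked. The genes named are the 5 members, the 2 most similar loci of each, every locus called within 100 measured loci, the list member with the smallest p, and the pairs of members with the highest and lowest correlation. The members and lists were chosen with earlier results of these data known. The labels do not say that replicates came from separate cultures, so a p-value reflects only how these samples spread, and that spread may be technical; the number of arrays limits the precision. Alternatives were a replicate block, quantile normalization, array weights, a variance trend, 2 genotypes at a time, the dimmer 50% left out, arrays left out, and other window sizes.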

Additional observations from a re-analysis of the deposited data

How the results depend on the processing

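No flanking gene passed the test under any of the 16 alternatives, and of 240 values 213 kept their direction. One alternative took the array number as a block (replicate block), which the data did not settle as a pairing. Of 9 same-numbered correlations of deviations 7 exceeded 0.1, the lowest was 0.014, and 6 of 9 arrays correlated best with their own number. With the block SRC2 kept its estimates of 0.27 in jmj24 (limma, adjusted p = 0.0973, unadjusted p = 0.00497) and 0.19 in 35S::JMJ24 (adjusted p = 0.381, unadjusted p = 0.0263). Thus 1 of the 5 genes had an unadjusted p under 0.05 in each line against WT, where without the block 0 had. The share of all probe sets at an unadjusted p under 0.05 was not counted with the block, so this count has no background beside it. The block raised the count of all probe sets called in jmj24 against WT to 607 and left that in 35S::JMJ24 against WT at 4. Same-numbered differences of SRC2 from WT were 0.38, 0.21 and 0.20 in jmj24 and 0.29, 0.074 and 0.20 in 35S::JMJ24. The count of all probe sets called in jmj24 against WT, 259 as reported, was 641 with array weights, 146 with only the 2 genotypes, 53 without the 3 arrays numbered 1, and 124 to 229 with 1 array left out. In 35S::JMJ24 against WT it was 8 with array weights, 1 without the 3 arrays numbered 1 and 2 to 4 with 1 array left out, and in jmj24 against 35S::JMJ24 it was 19 with only the 2 genotypes, 2 without the 3 arrays and 14 to 44 with 1 left out.

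Values close to 0 turned in sign; the cause was not tested. In 35S::JMJ24 against WT, AT1G09010 read -0.0094 after quantile normalization and -0.043 with array weights, and AT1G09150 read 0.018 without the 3 arrays numbered 1. In jmj24 against 35S::JMJ24, AT1G09150 read 0.0030 after quantile normalization and AT1G09130 -0.014 with array weights. With 1 array left out, jmj24 against WT ran between -0.096 and 0.017 for AT1G09010, -0.097 and 0.0099 for AT1G09130, and -0.052 and 0.0039 for AT1G09150. 35S::JMJ24 against WT ran between -0.037 and 0.039 for AT1G09010, -0.10 and 0.024 for AT1G09130, -0.062 and 0.022 for AT1G09150, and -0.0057 and 0.048 for AT1G09160. jmj24 against 35S::JMJ24 ran between -0.097 and 0.016 for AT1G09010, -0.069 and 0.047 for AT1G09130, -0.044 and 0.040 for AT1G09150, and -0.057 and 0.24 for SRC2.

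Of the 25 measured loci on each side, the count called in jmj24 was 1, and 0 with only the 2 genotypes, 0 without the 3 arrays numbered 1 and 0 to 1 with 1 array left out; with 10, 50 and 100 loci on each side it was 0, 3 and 6. For jmj24 against 35S::JMJ24 it was 0, and 1 with 50 or 100. Each flanking gene has 1 probe set, so the choice among several gave no value.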
